A study of Mus musculus with 3 samples.

Results

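The genes described here are 8 small nucleolar RNA (snoRNA) host genes: Gas5, Snhg1, Snhg3, Snhg4, Snhg5, Snhg6, Snhg8 and Snhg12. They were taken by symbol, as 8 of the 50507 gene rows in the count table of the series, and each was read singly and as part of their sum. Together they gave 12691 of 10554052 counts, or 0.12% of all counts. Snhg1 gave 45.6% of these counts, Snhg5 21.1%, Snhg3 10.5%, Snhg4 9.75%, Gas5 8.94%, Snhg12 2.99%, Snhg8 0.654% and Snhg6 0.394%. The first 5 of these, Snhg1, Snhg5, Snhg3, Snhg4 and Gas5, passed the filter on low counts and were tested. Snhg6, Snhg8 and Snhg12 did not pass and are described by their counts.

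snoRNA host genes carry snoRNAs inside their introns. After splicing, the intron is trimmed to the snoRNA, which pairs with ribosomal RNA and guides its chemical modification in the nucleolus: box C/D snoRNAs guide methylation of the ribose and box H/ACA snoRNAs guide pseudouridylation. The spliced host RNA has little or no coding capacity and is often removed by nonsense-mediated decay. Several hosts begin with a terminal oligopyrimidine (TOP) tract, as the mRNAs of ribosomal proteins do, and Gas5 was first described as a transcript that builds up in growth-arrested cells.

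The study followed the first days of reprogramming to pluripotency in primary mouse embryonic fibroblasts, wild-type and of strain BL6. All cultures, controls included, were exposed to lentiviruses for rtTA and for a tet-inducible cassette (tet-STEMCCA) with Oct4, Sox2, Klf4 and c-Myc, and reprogramming was started on day 0 with 2 µg/mL doxycycline in medium with serum, LIF, 3 µM chiron, 0.25 µM Alk5 inhibitor and 50 µg/mL ascorbic acid. In the screen, siRNA pools at 40 nM were delivered against each of 33 targets on the day before induction, with a non-targeting control (nt) and a mock transfection (Mock) beside them, and the transfected cells are set here against Day06 of the time course. The time course, Day00 to Day06, used cells that were re-plated but not transfected. The viruses were given at a multiplicity of infection of 1 and the labels name no selection for cells that received both, so that a culture could also hold cells without the cassette. Levels come from CEL-Seq2, a bulk assay here, which tags polyadenylated RNA at its 3′ end with a molecular identifier (UMI). The values are therefore of the host RNA and not of the snoRNA.

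The count table held 129 libraries in 3 sequenced pools, which are the 3 replicates, and 127 of these were used: 21 of the time course, 98 of siRNAs, 3 of nt and 5 of Mock. Of the 5 Mock libraries, 4 are pairs of columns with the same name within replicate 1 and within replicate 2, and nothing says whether a pair came from separate wells, so that n = 5 for Mock covers 3 replicates. Nothing in the labels ties a replicate to a separate culture, so that p-values measure the spread between these libraries. Total counts per library ran from 29656 to 235292 with a median of 73279, and were higher in replicate 3 (median 127079) than in replicates 1 (64227) and 2 (63122). The summed fibroblast markers Col1a1, Col1a2, Col3a1, Thy1, Postn, Pdgfrb and Vim stood at 5542 to 7326 CPM (counts scaled to a common library total) on Day00 and at 2151 to 3101 on Day06, and none of the 7 was at 0. The 9 early epithelial and pluripotency markers summed to 8.28 to 21.2 CPM on Day00 and 89.0 to 289 on Day06, with Nanog, Esrrb and Zfp42 still at 0. The 5 macrophage markers summed to 124 to 226 CPM on Day00, with Ptprc and Csf1r at 0, and to 18.1 to 89.0 on Day06. Most of this sum was Lyz2 alone, with a mean of 152 of 166 CPM on Day00 and 42.5 of 44.8 on Day06. The 4 endothelial markers were at 0 on Day00, where the 0 of Pecam1, Cdh5, Kdr and Tek in 227117 counts allows up to 3 counts each. In bulk RNA, a lower share of cells that express a gene and less RNA per cell cannot be told apart.

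In GENCODE vM21 on GRCm38, 7 of the 8 genes were found, with 27 distinct intronic snoRNA loci. One of them, in Gas5, is typed as a snoRNA there but carries the microRNA name Mir5117. Gas5 (chr1:161034422-161038539, plus strand) held 9 such loci, Snhg1 (chr19:8723475-8726443, plus) 8, Snhg12 (chr4:132308623-132311024, plus) 4, Snhg3 (chr4:132348014-132353686, minus) and Snhg5 (chr9:88521050-88522929, minus) 2 each, and Snhg6 (chr1:9941959-9944118, minus) and Snhg8 (chr3:123507552-123508404, minus) 1 each. Exons of Snhg3 overlap Rcc1 on the same strand and Gm17300 on the opposite one, and exons of Snhg6 overlap Mcmdc2 on the opposite strand, so that counts of these hosts are less certain.

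The hosted RNAs fall into both snoRNA classes. Of 27 snoRNA names with a sequence, 17 held TGATGA followed further on by CTGA, the letters of boxes C and D, and 5 others held ACA at 3 bases from their 3′ end, as H/ACA snoRNAs do. A snoRNA of each host that the tests below turn on, and 1 of Snhg3, are printed here from the GENCODE transcripts, 5′ to 3′, with those letters in capitals. The first is the most upstream snoRNA of Snhg1 (chr19:8723993-8724064, plus strand), annotated as Gm25855. It lies in an intron of 1 of the 18 annotated Snhg1 transcripts, and the other snoRNAs of Snhg1 in introns of 6 to 11. The pair from Snhg5 (Snord50b at chr9:88521797-88521868 and Snord50a at chr9:88521529-88521600, both minus) differ at 1 of 72 bases. Snord47 lies in Gas5 (chr1:161038082-161038158, plus) and Snora73b in Snhg3 (chr4:132352322-132352526, minus).
Gm25855: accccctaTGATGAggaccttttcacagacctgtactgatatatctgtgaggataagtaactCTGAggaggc
Snord50b: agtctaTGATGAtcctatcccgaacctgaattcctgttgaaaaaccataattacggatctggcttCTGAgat
Snord50a: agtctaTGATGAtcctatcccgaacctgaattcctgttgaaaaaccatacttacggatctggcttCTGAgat
Snord47: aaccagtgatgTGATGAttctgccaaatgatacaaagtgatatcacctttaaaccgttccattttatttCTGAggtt
Snora73b: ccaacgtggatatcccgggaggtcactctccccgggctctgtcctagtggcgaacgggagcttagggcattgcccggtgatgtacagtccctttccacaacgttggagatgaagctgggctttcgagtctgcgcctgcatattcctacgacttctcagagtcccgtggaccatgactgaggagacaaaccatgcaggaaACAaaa

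The promoter windows of the 3 hosts called higher in nt than on Day06 are shown as well, each with 50 bases before and 50 bases from the annotated RefSeq start on GRCm38.p6. Capitals mark TATAAA on either strand or, at the start base, a C followed by at least 4 pyrimidines, the letters with which a TOP RNA begins. The windows are chr19:8723437-8723536 (Snhg1, plus strand), chr9:88522848-88522947 (Snhg5, minus) and chr1:161035116-161035215 (Gas5, plus, the second of its annotated starts).
Snhg1: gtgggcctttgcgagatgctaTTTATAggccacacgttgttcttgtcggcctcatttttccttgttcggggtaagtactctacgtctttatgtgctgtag
Snhg5: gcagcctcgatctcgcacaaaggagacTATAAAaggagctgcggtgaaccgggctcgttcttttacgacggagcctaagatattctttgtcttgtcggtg
Gas5: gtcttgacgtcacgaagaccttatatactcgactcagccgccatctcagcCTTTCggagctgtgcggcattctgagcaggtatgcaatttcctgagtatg
RefSeq windows of 300 bases were found for 6 of the hosts, Gas5 with 2. TATAAA on either strand was present for 4 of 6 hosts (Snhg1, Snhg3, Snhg5 and Snhg8), in 4 of their 7 windows, and in 13.6% of all 32851 windows. It began 23 to 30 bases before the annotated start in Snhg1, Snhg5 and Snhg8, but 22 bases after it in Snhg3. The C with at least 4 pyrimidines stood at the annotated start of 2 of 6 hosts (Gas5 and Snhg8), of 2 of their 7 windows, and of 2.51% of all windows. Of the 2 annotated starts of Gas5, the first lacked it and the second, printed above, held it. CACGTG, which reads the same on both strands, was present for 0 of 6 hosts and in 7.15% of windows. These counts describe letters in a window, and the pyrimidine count depends on where the start is annotated.

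Over the untransfected time course, the summed hosts had their lowest mean on Day00, a higher one on Day01, a low one again on Day03 and their highest on Day05. The sum is in CPM of the TMM-scaled total, a level, and carries no test. Its mean was 468 CPM ± 38.7 (SD, n = 3) on Day00, 849 ± 169 on Day01, 704 ± 181 on Day02, 503 ± 106 on Day03, 721 ± 106 on Day04, 1027 ± 168 on Day05 and 821 ± 184 on Day06. In the order of the 7 means, Day00 and Day03 differed by less than their SD, as did Day02, Day04, Day06 and Day01 from their neighbours, while the steps from Day03 to Day02 and from Day01 to Day05 exceeded the SD of both. The 3 Day00 libraries (431, 508 and 463 CPM in replicates 1 to 3) all lay below the 3 Day06 libraries (682, 1030 and 750), and the 3 Day05 libraries (926, 1221 and 934) lay above Day00 as well. As CPM of all counts without TMM scaling, Day03 (444 CPM ± 90.2) had the lowest mean in place of Day00 (454 ± 47.7), Day05 (956 ± 152) was still the highest, and the 1 step above the SD of both neighbours was that from Day00 to Day02. Without Snhg1 the ratio of Day06 to Day00 was 1.51, against 1.76 for all 8 hosts.

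**Figure D1:**
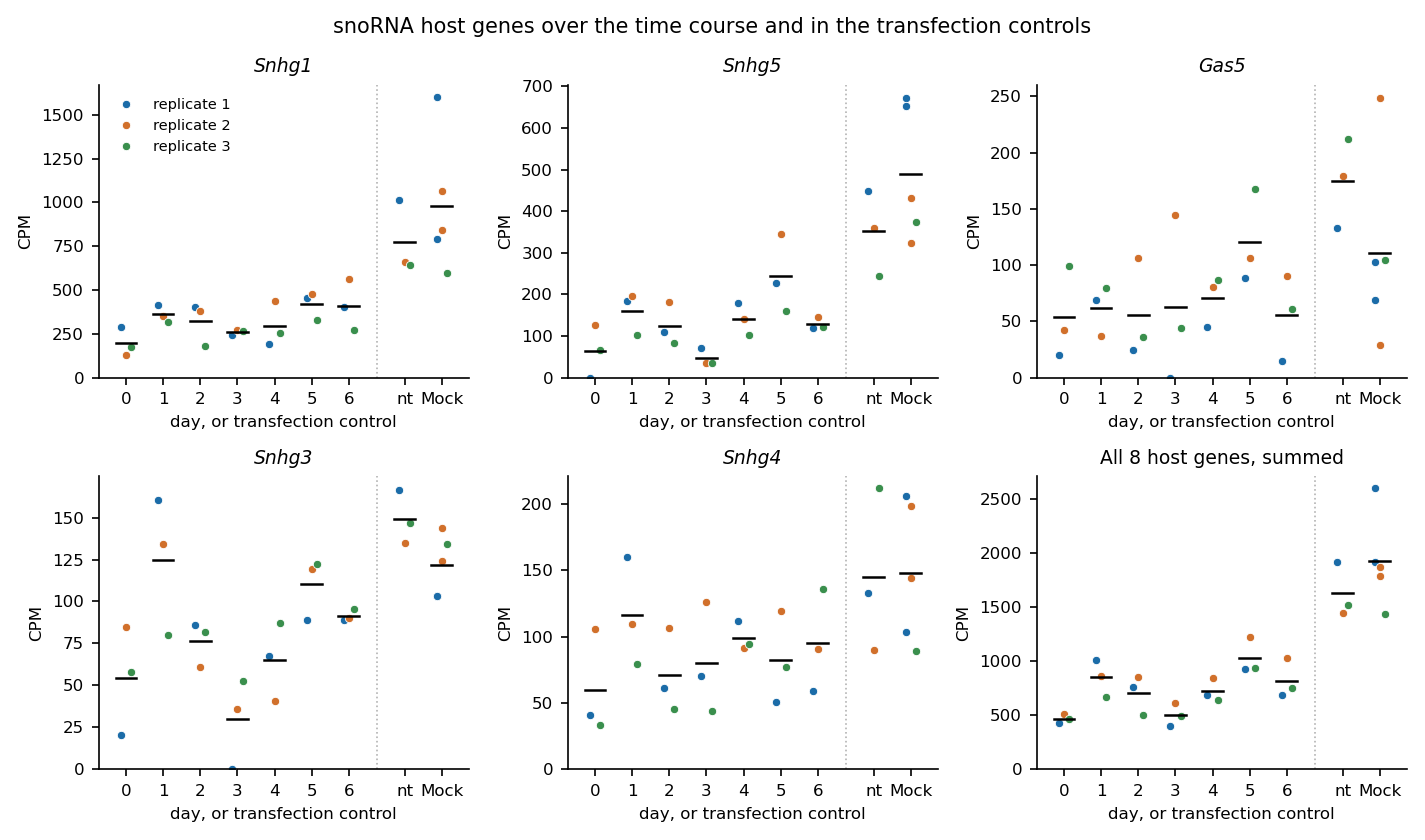
Levels of the 5 tested hosts and of the sum of all 8, in CPM, for each library of days 0 to 6 and of the nt and Mock transfections (right of the dotted line), coloured by replicate, with the mean as a bar. Every nt and Mock library of the sum (1433 to 2606 CPM) lies above every untransfected library, the highest of which is at 1221 CPM.

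Which hosts moved over the days was asked with a joint test over Day00 to Day06, in which 42.5% of the 3013 tested genes passed. Of the 5 tested hosts, 2 passed. Snhg5 did so at an adjusted p of 7.00e-05 (edgeR quasi-likelihood test with Benjamini-Hochberg adjustment), and at 3.47e-06 to 0.00260 under 10 alternatives. Snhg1 passed at 0.0147, but had an adjusted p of 0.0726 to 0.153 under 5 of 10 alternatives, among them 0.0785 without the replicate block. Snhg3 (0.0539), Gas5 (0.120) and Snhg4 (0.512) did not pass. Under 1 alternative each, Snhg3 passed with limma on the deposited log2 values (0.000287) and Gas5 without replicate 2 (0.0128), while Snhg4 passed under none of 9. The share of hosts that passed was close to that of all genes.

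Snhg1 was the host with the most counts and was the one called on Day06 against Day00. Its level was 287, 127 and 174 CPM in replicates 1 to 3 on Day00 and 401, 560 and 273 on Day06. It was higher on Day06 in each replicate, although the lowest Day06 library lay just under the highest Day00 library. The log2 fold change was 0.96 ± 0.29 (SE), with an adjusted p of 0.00825 by edgeR, in a comparison where 22.2% of genes passed and 10.7% passed as higher. Without replicate 2 it was 0.65 ± 0.35 and did not pass (adjusted p = 0.240). On Day05 its level was 457, 478 and 329 CPM, above all Day00 libraries, as was the case for 20.7% of all genes tested. Its log2 fold change on Day05 was 1.06, with an adjusted p of 0.00148 by edgeR (31.9% of genes passed, 16.8% as higher). This call held under 9 of 9 alternatives (0.84 to 1.31 on the log2 scale).

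Snhg5, the host of the Snord50 pair printed above, was the 1 host called between successive days. It stood at 0, 127 and 66.2 CPM on Day00, at 183, 195 and 102 on Day01, at 110, 182 and 82.1 on Day02, at 69.9, 36.1 and 35.2 on Day03, at 179, 142 and 102 on Day04, at 228, 345 and 161 on Day05 and at 119, 145 and 123 on Day06. The Day03 libraries lay below all libraries of Day01, Day02, Day04, Day05 and Day06. How many of all genes have such a pattern was not counted. On Day05 against Day00 its log2 fold change was 1.78, with an adjusted p of 0.000307 by edgeR, and the call held under 9 of 9 alternatives, at 1.49 to 2.35. From Day03 to Day04 it rose by 1.57 ± 0.49 on the log2 scale (adjusted p = 0.0191 by edgeR). This step, where 11.9% of genes passed, was the 1 call among 30 pairs of a host and a step between days. It was lost without replicate 1, 2 or 3 in turn (adjusted p of 0.0688, 0.0834 and 0.115) and with DESeq2 (0.0537). Over the 6 steps together, 7.02% of gene and step pairs passed. On Day06 against Day00 the log2 fold change of Snhg5 was 0.95 with an adjusted p of 0.157 by edgeR, and 1 of 9 alternatives, limma on the deposited log2 values, called it (1.57, 0.00900).

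Day01 to Day05 against Day00 gave 2 calls in 25 pairs of a host and a day, the Day05 calls of Snhg1 and Snhg5, against a background of 16.6% of gene and day pairs. With limma on the deposited log2 values there were 6, against a background of 3.82% in that fit. On Day01 the log2 fold change was 0.86 for Snhg1 (adjusted p = 0.0520 by edgeR), 1.23 for Snhg5 (0.0826), 1.06 for Snhg3 (0.202) and 1.04 for Snhg4 (0.274), and -0.15 for Gas5 (0.917). None of these passed.

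Gas5, Snhg3 and Snhg4 were not called on any day against Day00. Gas5 stood at 20.5, 42.3 and 99.3 CPM on Day00, at 88.8, 106 and 168 on Day05 and at 14.8, 90.4 and 61.4 on Day06. Its Day05 libraries overlapped those of Day00, and its log2 fold change on Day06 was -0.27 (adjusted p = 0.795 by edgeR), or 0.54 without replicate 3. Snhg3, whose snoRNAs Snora73a and Snora73b act in the processing of the ribosomal RNA precursor, ranged from a mean of 29.6 CPM ± 27.0 (SD, n = 3) on Day03 to 124.8 ± 41.2 on Day01, with 1 Day03 library at 0. Snhg4 ranged from 60.0 ± 39.9 CPM on Day00 to 117 ± 40.8 on Day01. The log2 fold change of Day06 against Day00 was 0.73 for Snhg3 and 1.01 for Snhg4, and the median over the 5 hosts was 0.95 beside 0.05 over all genes tested. Over the same days 4 of the 6 tested fibroblast markers and the 1 tested macrophage marker, Lyz2, were called lower, beside 11.5% of all genes. Their part in the host levels was not tested.

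The 3 hosts below the filter gave few counts over the days. Snhg12 had 8 counts on Day00 and 9 on Day06, a ratio of shares of 0.963 (95% exact interval 0.330 to 2.87). Snhg8 had 0 of 227117 counts on Day00, which allows up to 3, and 2 on Day06, and Snhg6 had 0 and 1. Such intervals cover counting error only, and a change of these hosts was not detectable at this depth.

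The summed hosts were higher in the nt libraries than in the untransfected Day06 libraries. The nt cells differed from Day06 cells by the non-targeting siRNA, the transfection and a further day in culture before induction. The sources used here do not say what the Mock cells received beyond a mock transfection, and the part of each of these in the difference was not tested. The summed hosts were at 682, 1030 and 750 CPM in the Day06 libraries and at 1915, 1451 and 1520 in the nt libraries of replicates 1 to 3, which did not overlap, and the ratio of means was 1.98. The 5 Mock libraries ran from 1433 to 2606 with a median of 1874 and so also lay above every Day06 library, and 103 of all 106 transfected libraries lay above the highest Day06 library. Scaled to all counts of a library instead, the ratio of nt to Day06 was 1.61.

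Of the 5 tested hosts, 3 were higher in nt than on Day06, in a comparison where 26.6% of genes passed and 15.6% passed as higher. Snhg1 was at 401, 560 and 273 CPM on Day06 and at 1016, 658 and 645 in nt, a log2 fold change of 0.98 ± 0.22 (adjusted p = 0.000296 by edgeR). Snhg5 was at 119, 145 and 123 CPM on Day06 and at 450, 359 and 245 in nt, 1.37 ± 0.33 on the log2 scale (adjusted p = 0.000756). Gas5 was at 14.8, 90.4 and 61.4 CPM on Day06 and at 133, 179 and 212 in nt, 1.68 ± 0.45 on the log2 scale (adjusted p = 0.00267). For each of these 3 hosts, every nt library lay above every Day06 library, as was the case for 17.3% of all genes tested.

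Snhg3 went from 89.0, 90.4 and 95.4 CPM to 167, 135 and 147, which did not overlap either, but its log2 fold change of 0.67 ± 0.41 did not pass (adjusted p = 0.224 by edgeR). Snhg4 overlapped between the groups, at 59.3, 90.4 and 136 CPM on Day06 and at 133, 89.7 and 212 in nt, and its 0.56 ± 0.42 did not pass (0.333). The median over the 5 hosts was 0.98, beside -0.01 over all genes tested. None of the 3 calls passed with limma on the deposited log2 values, where the log2 differences were 0.59 to 1.37 (adjusted p of 0.132 to 0.326), and without replicate 3 Snhg1 (0.0512) and Gas5 (0.0982) were lost. Mock was also set in place of nt, an alternative chosen after seeing the data. That fit took the 5 Mock libraries as separate, although they cover 3 replicates. In it, Snhg1 (1.26 ± 0.21 on the log2 scale, adjusted p = 2.79e-07 by edgeR) and Snhg5 (1.86 ± 0.31, 3.20e-07) were higher than on Day06 as well. Gas5, at 1.02 ± 0.51, did not pass (0.116). When the Mock columns of a replicate were summed to 1 library, 2 of the 5 hosts passed against Day06. The summed fibroblast markers stood at 1258 to 1549 CPM in nt against 2151 to 3101 on Day06, with 3 of the 6 tested called lower, the macrophage markers at 16.3 to 29.9 against 18.1 to 89.0, with Ptprc, Cd68, Csf1r and Adgre1 at 0 in nt, and the early epithelial and pluripotency markers at 98.0 to 250 against 89.0 to 289. Their part in the host levels was not tested.

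**Figure D2:**
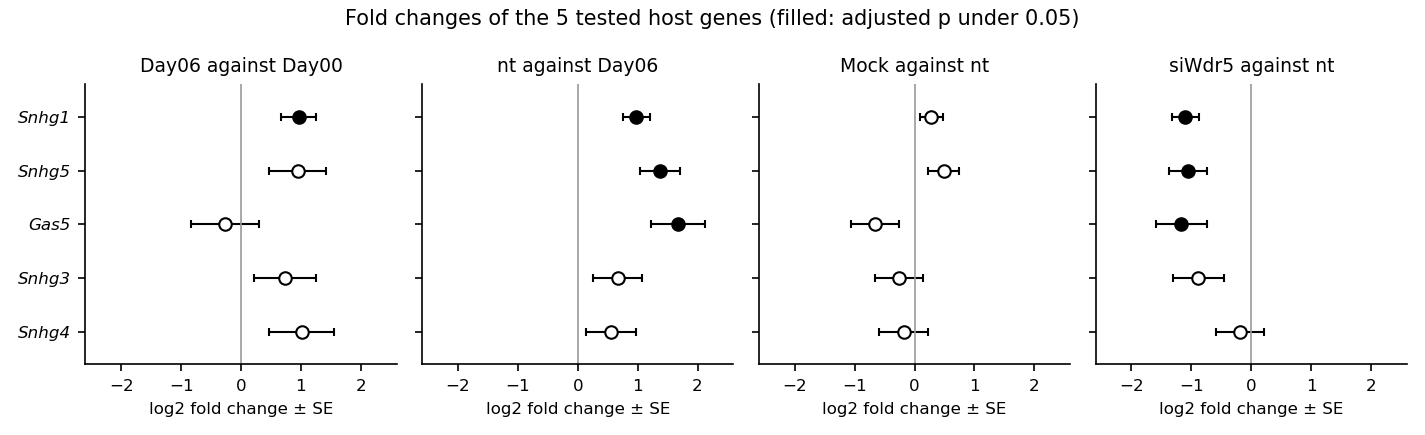
Fold changes of the 5 tested hosts on the log2 scale with their standard error, for Day06 against Day00, nt against Day06, Mock against nt and siWdr5 against nt, with filled points for an adjusted p under 0.05. Snhg1, Snhg5 and Gas5 are filled on the right of 0 in nt against Day06 and on the left in siWdr5 against nt, comparisons that share the nt libraries.

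Over all transfected against all untransfected libraries, the shares of counts can be set side by side for the hosts with few counts too. Snhg8 had 76 counts in transfected and 7 in untransfected libraries, a ratio of shares of 2.34 (95% exact interval 1.08 to 6.02), Snhg6 had 42 and 8, a ratio of 1.13 (0.525 to 2.79), and Snhg12 had 315 and 64, a ratio of 1.06 (0.809 to 1.41). The same ratio was 2.25 for Snhg5 (1.97 to 2.59), 1.98 for Snhg1 (1.82 to 2.16), 1.74 for Snhg3 (1.47 to 2.08), 1.61 for Gas5 (1.34 to 1.94) and 1.53 for Snhg4 (1.29 to 1.82). The interval of Snhg12 thus lay below those of Snhg5, Snhg1 and Snhg3, while that of Snhg8 overlapped all others. These intervals cover counting error and not the spread between libraries, and the days are pooled.

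Between the mock and non-targeting transfections no host was called. In Mock against nt, 1.56% of genes passed and 0 of the 5 hosts did by edgeR, with 0 at an unadjusted p under 0.05, and 0 passed with limma or DESeq2, which gave an adjusted p for Snhg1 and Snhg5 alone. Snhg1 was at 645 to 1016 CPM in nt and, in the 5 Mock libraries, at 597 to 1600 with a median of 844. Gas5 was at 133 to 212 CPM in nt and at 28.8 to 248 in Mock, with a log2 fold change of -0.66 ± 0.40 (adjusted p = 0.574). Snhg5 had the opposite sign, 0.48 ± 0.26 (0.494). With the paired Mock columns of a replicate summed to 1 library, an alternative chosen after seeing the data, 0 of the 5 hosts passed as well. The standard errors were 0.19 to 0.41 on the log2 scale.

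Across the 33 siRNAs, the summed level ran from 872 CPM ± 224.5 (SD, n = 3) in the libraries labelled siWdr5 to 2230 ± 342 in those labelled siJarid2. The next lowest means were those of siEp300 (1110 ± 70.8) and siBptf (1170 ± 195), and the next highest those of siMyc (2131 ± 465) and siWhsc1l1 (2105 ± 424). Of the 33 means, 17 lay below that of nt (1628 ± 251, n = 3) and 4 above that of Mock (1925 ± 427, n = 5). In the order of the 35 transfected means, 1 of 34 steps between neighbours exceeded the SD of both, the step from siWdr5 to siEp300. The other neighbours differed by less than the SD of at least 1 of them. This step and part of the order depend on the scaling. As CPM of all counts without TMM scaling, siWdr5 was still lowest (761 CPM ± 180.5), but siPrkdc came next (938 ± 75.2), siMyc was highest (1851 ± 387) above siJarid2 (1752 ± 206), and 0 of 34 steps exceeded the SD of both neighbours.

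The counts of most targets were too few to check the knockdown in these libraries, so the groups are named by their label. The study reports efficient knockdown for Wdr5 among others by RT-qPCR, measured earlier in reprogramming than the day of these libraries. That measurement is not analysed here, and the few counts of the later day cannot check it. Wdr5 had 7 counts in the siWdr5 libraries and a share of 0.940 times that in the 103 other transfected libraries (95% exact interval 0.373 to 1.97). Ep300 had 17 counts and a ratio of 1.47 (0.845 to 2.41) in the siEp300 libraries, and against nt, with 3 counts, it was higher (4.25, 1.23 to 22.6). Eny2 had 35 counts and a ratio of 0.879 (0.609 to 1.23). Tead2 had 2 counts. The intervals of the other targets named here, Bptf, Nsd3 (listed for siWhsc1l1), Myc and Jarid2, all held 1 as well.

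**Figure D3:**
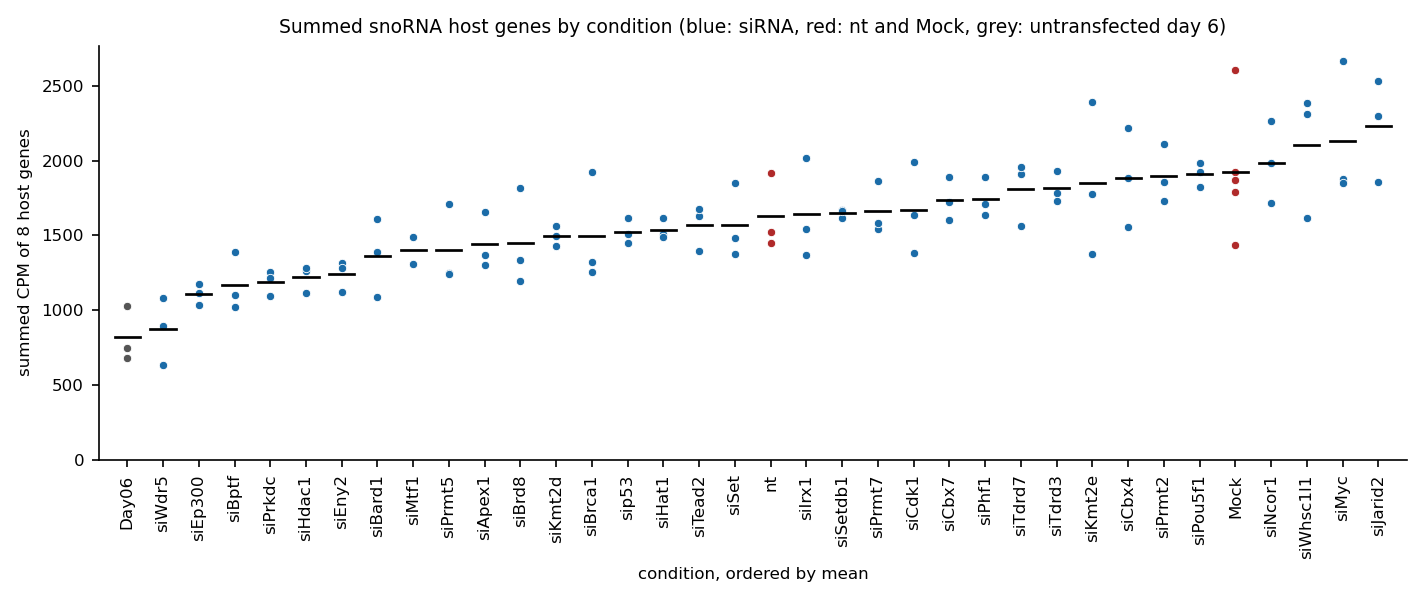
Summed CPM of the 8 hosts in each transfected condition and on Day06, ordered by mean, with a point per library and the mean as a bar. The siWdr5 libraries (636 to 1083 CPM) overlap the untransfected Day06 libraries (682 to 1030), and their mean is followed by a step to siEp300 (1110 CPM).

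A joint test over the 33 siRNAs and nt called 44.8% of genes and 3 of the 5 hosts: Snhg1 (adjusted p = 5.62e-17 by edgeR), Snhg5 (9.42e-08) and Gas5 (0.00414). Snhg1 held under 9 of 9 alternatives. Snhg5 was lost with limma on the deposited log2 values (0.124), and Gas5 with limma (0.296) and without replicate 2 (0.0510) or 3 (0.0926). Snhg3 (0.0698) and Snhg4 (0.219) did not pass, and of their alternatives 1 did, Snhg4 without replicate 1 (0.0473).

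Against nt, 6 of 165 pairs of a host and an siRNA were called, all lower, in 33 comparisons that share the 3 nt libraries and in which 2.57% of gene and siRNA pairs passed. At an unadjusted p under 0.05 there were 22 of 165, beside 12.5% of all gene and siRNA pairs. Without the replicate block 2 were called (1.08% of gene and siRNA pairs), with nt and Mock together as control 8 (3.38%), all lower, and with the mean of the other siRNAs as control 9 (4.28%), 6 lower and 3 higher. Calls that nt did not give with nt and Mock as control were those of Snhg1 under siBptf (-0.73, adjusted p = 0.0349 by edgeR) and of Snhg5 under siEp300 (-0.78, 0.0166), siPrkdc (adjusted p = 0.0236) and siTead2. Snhg1, the host with the most counts, made 3 of the 6 calls, Gas5 2 and Snhg5 1.

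The libraries labelled siWdr5 held 3 of the 6. WDR5 is a core subunit of complexes that methylate lysine 4 of histone H3. In this comparison 27.2% of genes passed and 15.1% passed as lower. Snhg1 was at 515, 355 and 228 CPM in replicates 1 to 3, below its nt level in each, and fell by 1.10 ± 0.22 on the log2 scale (adjusted p = 4.32e-05 by edgeR). Snhg5 was at 158, 185 and 142 CPM against 450, 359 and 245 in nt, and its log2 fold change was -1.06 ± 0.32 (0.00764). Gas5 was at 92.5, 85.3 and 66.4 CPM against 133, 179 and 212, with -1.17 ± 0.42 (0.0283). For these 3 called hosts and for Snhg3, every siWdr5 library lay below every nt library, as was the case for 18.1% of all genes tested. Snhg3 had a log2 fold change of -0.88 ± 0.42 (adjusted p = 0.109) and Snhg4 of -0.19 ± 0.40 (0.753). The median over the 5 hosts was -1.06, beside 0.00 over all genes tested.

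The calls under siWdr5 were unequal in strength. Snhg1 was called under 10 of 11 alternatives and Snhg5 under 9 of 11, while Gas5 was called under 2 of 11, its log2 fold change running from -1.42 to -0.73. Snhg5 was lost with limma (adjusted p = 0.384) and without replicate 1 (0.0996 by edgeR), and Gas5, among others, without replicate 2 (0.0656) or 3 (0.408). With the mean of the other siRNAs as control, Snhg1 (-1.06, adjusted p = 8.75e-08 by edgeR), Snhg5 (-1.05, 0.000193) and Snhg3 (-1.03, 0.00580) were called. The summed fibroblast markers stood at 4015 to 4566 CPM in the siWdr5 libraries and at 1258 to 1549 in nt, and 5 of the 6 tested passed as higher (12.2% of all genes). The 9 early epithelial and pluripotency markers summed to 26.4 to 71.1 CPM against 98.0 to 250, with Esrrb, Zfp42 and Lin28a at 0 in siWdr5, and the 5 macrophage markers to 0 to 114 against 16.3 to 29.9. The part of these in the host levels was not tested.

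The other 3 calls against nt were of single hosts. Snhg1 was at 391, 420 and 413 CPM in the libraries labelled siEny2, ENY2 being a subunit of a histone deubiquitinase and of an mRNA export complex, and its log2 fold change was -0.86 ± 0.22 (adjusted p = 0.00916 by edgeR; 1.89% of genes passed). All 3 lay below the nt libraries, as was the case for 6.07% of all genes tested. The call was lost without the replicate block (0.211), with limma (0.9997) and without replicate 1, 2 or 3 in turn (0.0543 to 0.456). In the same libraries Gas5 had its highest mean of any condition, 232 CPM ± 48.9 (SD, n = 3), with a log2 fold change of 0.29 ± 0.35 against nt (0.815). Snhg1 was at 486, 539 and 425 CPM in the libraries labelled siEp300, a histone acetyltransferase, with -0.65 ± 0.21 (0.0367; 5.68% of genes passed), a call that held under 3 of 11 alternatives. The Ep300 count was not lower in these libraries.

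Gas5 was at 69.0, 42.9 and 45.1 CPM in the libraries labelled siTead2, TEAD2 being a DNA-binding partner of YAP. Its log2 fold change was -1.81 ± 0.51 (adjusted p = 0.0497 by edgeR; 1.03% of genes passed), with 9 counts in 3 libraries, and none of 10 alternatives kept the call (0.0636 to 0.528). In these libraries Snhg5 had its lowest mean under an siRNA, 134 CPM ± 44.3 (SD, n = 3; -1.19 ± 0.36, 0.0758), and passed with nt and Mock together as control (-1.43, 0.00168), whereas Snhg1 stood at 1017 ± 221 (0.38 ± 0.20, 0.480). Snhg1 made up 64.3% ± 8.34 of the sum in siTead2 (SD, n = 3) and 33.1% ± 3.87 in siEny2, the highest and the lowest mean share of the 42 conditions.

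**Figure D4:**
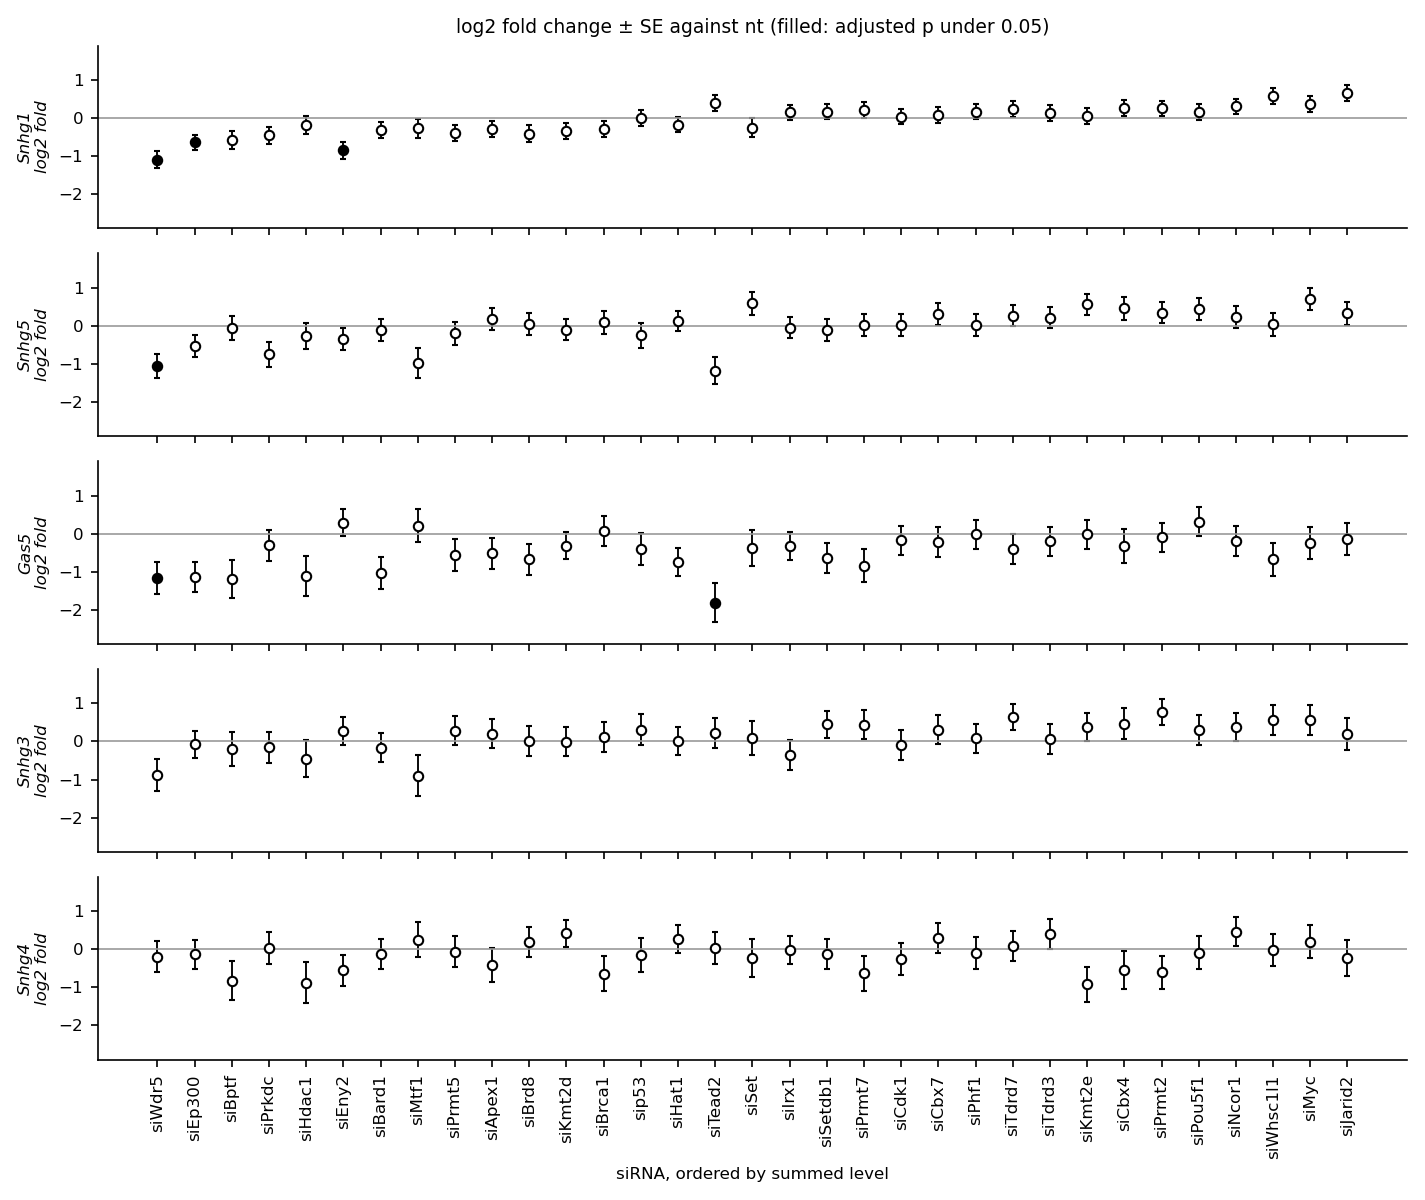
Log2 fold change against nt with its standard error for the 5 tested hosts under each of 33 siRNAs, ordered by the summed level, with filled points for an adjusted p under 0.05. The 6 filled points are those of Snhg1 under siWdr5, siEp300 and siEny2, of Snhg5 under siWdr5, and of Gas5 under siWdr5 and siTead2, and the nt libraries are shared by all points.

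No host was called higher than nt under any siRNA by edgeR. The largest log2 fold changes upwards were 0.65 for Snhg1 (siJarid2, adjusted p = 0.101), 0.70 for Snhg5 (siMyc, 0.364), 0.78 for Snhg3 (siPrmt2), 0.47 for Snhg4 (siNcor1) and 0.31 for Gas5 (siPou5f1). With the mean of the other siRNAs as control, in place of the 3 nt libraries, Snhg1 was called higher under siJarid2 (0.75, adjusted p = 0.00137) and siWhsc1l1 (0.68, 0.000719) and Gas5 under siPou5f1 (0.79, 0.0433). The fitted log2 fold change of Gas5 against nt was negative under 29 of 33 siRNAs, with a median of -0.33, and also in Mock, while that of Snhg3 was positive under 23 of 33. By mean CPM the counts were 27 and 22. Both counts turn on the level of the same 3 nt libraries.

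How closely the hosts followed each other was described by correlation. The correlation of each host with the sum of the others, over condition means of log2 CPM, was 0.958 for Snhg5, 0.831 for Snhg3, 0.817 for Snhg1, 0.682 for Gas5 and 0.563 for Snhg4 over 7 days. Over 35 transfected conditions it was 0.575 for Snhg3, 0.550 for Snhg5, 0.537 for Snhg1, 0.258 for Gas5 and 0.0740 for Snhg4. Points share libraries, scaling and, for the days, a time order, so that these are descriptions.

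The genes most like the summed hosts were named by the correlation of condition means, with the replicate removed, among 2813 tested genes with at least 50 CPM on average. Over the 7 days these were Hist1h2ap (0.982), a histone, Snu13 (0.979), the protein that binds box C/D snoRNAs first, Rsl1d1 (0.978), Snrpg (0.977), a subunit of spliceosomal particles, and Ndufaf4 (0.975). Over the 35 transfected conditions they were H2afz (0.844), a histone variant, Gm2000 (0.841), Rpl35 (0.835), Atp5j2 (0.829) and Rpl7 (0.824), with 2 ribosomal protein genes among them. Of the 3013 genes tested, 69 are ribosomal protein genes. The genes named are those with the highest of 2813 correlations in these data, over as few as 7 points. High values therefore follow from the choice, and no test was made of them. Rpl35 and Rpl7 belong to families with many pseudogenes, whose reads can be split.

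Ribosomal protein genes, whose mRNAs start with a TOP tract, were followed beside the hosts. Over condition means on the log2 scale, the correlation of their sum with the summed hosts was 0.665 over 7 days and 0.844 over 35 transfected conditions, and 0.742 for the latter without Snhg1. Singly it was 0.737 for Snhg1, 0.656 for Snhg5, 0.607 for Snhg3, 0.333 for Gas5 and 0.149 for Snhg4 over the 35 conditions. Over the 7 days it was 0.764 for Snhg1, 0.584 for Gas5, 0.542 for Snhg5, 0.259 for Snhg3 and 0.234 for Snhg4. The sum without Snhg1 gave 0.539 over the days. Of 69 tested ribosomal protein genes, 27 were higher and none lower on Day06 against Day00 (median log2 fold change 0.62), 33 were higher and 3 lower in nt against Day06 (0.52), 2 were higher in Mock against nt (0.08), and none was higher and 38 were lower in siWdr5 against nt (-0.66). Both sums share libraries and scale.

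**Figure D5:**
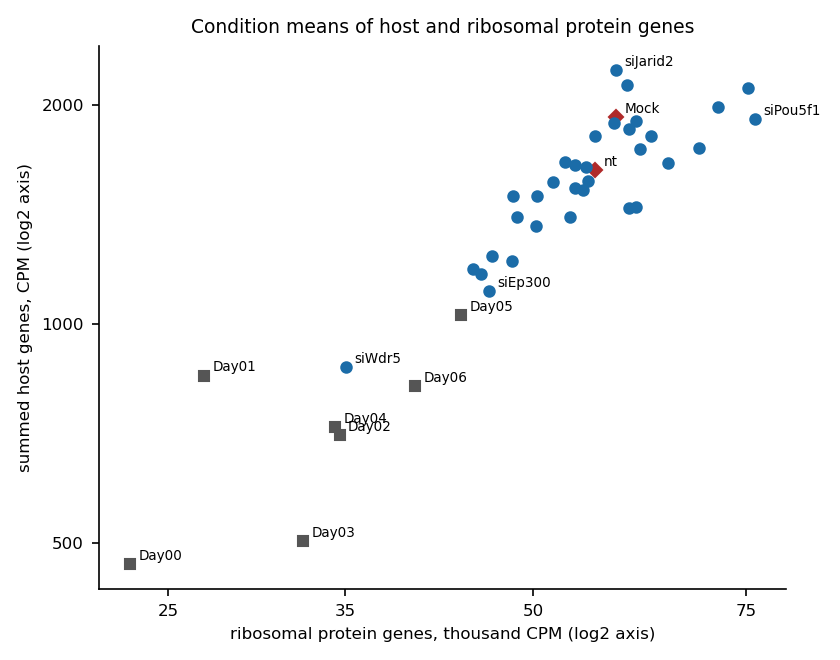
Condition means of the summed hosts against those of the summed ribosomal protein genes, on log2 axes in the CPM units their labels give, for 7 days (squares), nt and Mock (diamonds) and 33 siRNAs (circles). siWdr5, at 872 CPM of hosts, is the 1 transfected condition below the 1027 CPM of Day05.

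Other genes of the snoRNA pathway were read in the same comparisons. The lists share genes, so their counts are not separate from each other: of the 22 tested protein-coding hosts, 12 are ribosomal protein genes counted above, 3 (Dkc1, Nop56 and Nop58) are also among the snoRNA particle proteins and 1 (Tpt1) is also among the other TOP genes. Among all genes tested, 10.7% passed as higher on Day06 against Day00 and 15.6% as higher in nt against Day06. In Mock against nt 1.56% passed, and 15.1% passed as lower in siWdr5 against nt. Of 22 tested protein-coding snoRNA hosts, 6 were higher and none lower on Day06 against Day00 (median log2 fold change 0.65), 7 were higher and 1 lower in nt against Day06 (0.32), 1 was lower in Mock against nt (-0.13), and 10 were lower and none higher in siWdr5 against nt (-0.54). Of 7 tested proteins of the snoRNA particles, 4 were higher on Day06 against Day00 (1.33), 3 higher in nt against Day06 (0.75), none called in Mock against nt (-0.23) and 4 lower in siWdr5 against nt (-0.95). No gene of this list was called in the opposite direction in these comparisons. Of the other noncoding hosts, Snhg14 and Snhg20 were tested, and Snhg14, which carries box C/D clusters of the imprinted Snrpn locus, was called higher in nt against Day06 and lower in siWdr5 against nt, with no call on Day06 against Day00 or in Mock against nt.

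The remaining lists held fewer tested genes or calls in both directions. Among all genes tested, 10.7% passed as higher on Day06 against Day00. In nt against Day06, 26.6% passed in either direction and 15.6% as higher. In siWdr5 against nt, 12.2% passed as higher and 15.1% as lower. The counts of these lists were not tested against such shares. Of the assembly factors, Nolc1 and Znhit6 were tested: Nolc1 was higher on Day06 against Day00 and lower in nt against Day06, and neither was called in Mock or siWdr5 against nt. Of 5 tested nonsense-mediated decay factors, 1 was higher on Day06 against Day00, 1 was higher and 1 lower in nt against Day06, none was called in Mock against nt and 1 was lower in siWdr5 against nt. Of 14 tested other TOP genes, 3 were higher on Day06 against Day00, 3 were higher and 4 lower in nt against Day06, none was called in Mock against nt, and 2 were higher and 4 lower in siWdr5 against nt.

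The called genes with the largest changes in Day06 against Day00 and nt against Day06, the comparisons from which genes were named, in these lists of hosts, snoRNA particle proteins, assembly factors, decay factors and other TOP genes, the 8 hosts described here left out, were 9. On Day06 against Day00 they were Rbm8a, a subunit of the exon junction complex (2.85 ± 0.71 on the log2 scale, adjusted p = 0.000924 by edgeR, from 12.6 CPM ± 11.1 to 115 ± 30.4, SD, n = 3), Nhp2, an H/ACA particle protein (1.96 ± 0.36, 3.72e-06), and Dkc1, its pseudouridine synthase (1.66 ± 0.32, 9.92e-06), and no gene of these lists was called lower. In nt against Day06 the largest upwards were Npm1, a nucleolar chaperone (1.63 ± 0.15, 8.11e-21, from 2033 CPM ± 232 to 6234 ± 657), Snhg14 (1.45 ± 0.51, 0.0242) and Magoh, a partner of Rbm8a (1.43 ± 0.43, 0.00838). The largest downwards were Eif4a3, another exon junction protein (-1.97 ± 0.43, 0.000163), Nolc1, a chaperone of snoRNA particles (-1.59 ± 0.50, 0.0111), and Eif3f, a subunit of translation initiation factor 3 (-1.55 ± 0.60, 0.0431). Magoh and Eif4a3, of the same complex, thus changed in opposite directions.

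With relative log expression (RLE) size factors in place of TMM, the median of all genes shifted by -0.16 on the log2 scale in Day06 against Day00, by -0.14 in nt against Day06 and by 0.17 in siWdr5 against nt. The directions given above for Snhg1, Snhg5 and Gas5 in the latter comparisons were kept under RLE, with Gas5 in siWdr5 at -0.99 (adjusted p = 0.0680 by edgeR).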

How the data were processed

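RNA of mouse embryonic fibroblasts was measured by CEL-Seq2 in 3 sequenced pools, and each library's condition was read from its column name. The authors aligned the reads to mm10 (GRCm38 in the submitters' processing notes) and counted UMIs per gene; these deposited counts were used as given. The authors also deposited log2 values, filtered for quality and regressed for batch, which served as an alternative. Counts were tested in edgeR 4.0.16 (R 4.3.3; quasi-likelihood, TMM scaling, filterByExpr, condition plus replicate block, Benjamini-Hochberg over 3013 genes) on 127 libraries together. limma 3.58.1 and DESeq2 1.42.0 were alternatives. A call is an adjusted p under 0.05, and the SE is the log2 fold change over the root of F. The edgeR fit alone was also run on simulated counts, the outcome of which is not given here and is not used as support.

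The 2 libraries left out, without log2 values, held 7981 and 6403 counts; one is a Mock column of replicate 3, told from its namesake by the correlation with the deposited log2 values (0.973 against 0.0118). Depth ran from 29656 to 235292 counts, which limits single hosts to few counts per library. Replicate numbers mark the sequenced pool, and deviations from condition means correlated at a median of 0.0981 within a number and -0.0685 between numbers. Exact intervals cover counting error only. Hosts and lists (other hosts, snoRNA particle proteins, assembly, decay, TOP, ribosomal and cell markers) were chosen with earlier results of these data known. The genes named from the lists, the 8 hosts and the ribosomal and marker lists left out, were the up to 3 called genes with the largest log2 fold change in each direction in Day06 against Day00 and nt against Day06. Coordinates are from GENCODE vM21 and promoters from RefSeq GRCm38.p6.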

Additional observations from a re-analysis of the deposited data

Results flagged for a closer look

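In the 5 Mock libraries, Snhg6 had 1 count in 1 library and 0 in the others, so that the gap of that library to its nearest neighbour was 1 as a share of the whole range. A single count in 1 library always gives this share, so it says nothing about that library. Rows of snoRNAs themselves, which no comparison used, held 858 counts in 45 of 147 rows. Of these, Snora73b, hosted by Snhg3, had 325 counts in 106 libraries.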

How the results depend on the processing

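Of the calls, those of Snhg1 and Snhg5 on Day05 against Day00, of Snhg5 over the days and of Snhg1 over the siRNAs held under each alternative run. The count of hosts called over the days (2, beside 42.5% of genes) was 1 with RLE size factors (43.7% of genes), 1 without the replicate block (28.2%), 1 with DESeq2 (42.3%) and 3 with limma (9.96%); the 6 calls against nt (2.57% of gene and siRNA pairs) were 3 with RLE (2.63%), 3 with no filter on low counts (0.186%), 2 without the replicate block (1.08%) and 0 with limma (0.104%), but 8 with nt and Mock together as control (3.38%) and 9 with the mean of the other siRNAs as control (4.28%). The block changed no other count of calls by over 1.5 times. With limma on the deposited log2 values (10568 genes tested), 2 hosts were called on Day06 against Day00 (5.77% of genes), 6 on Day01 to Day05 against Day00 (3.82%), 3 between successive days (0.781%), 0 in nt against Day06 (1.52%) and 1 over the siRNAs (6.25%); DESeq2 called 0 between successive days (9.43% of the 12529 gene and step pairs to which it gave an adjusted p). Without 1 replicate at a time, calls of hosts ran from 0 to 1 on Day06 against Day00 (12.8% to 15.4% of all genes called), 1 to 2 on any day (25% to 28.8%), 2 to 3 on Day01 to Day05 (9.02% to 10.6%), 0 to 0 between successive days (3.02% to 3.58%), 1 to 3 in nt against Day06 (12.9% to 15.7%), 0 to 0 in Mock against nt (0.394% to 0.616%), 2 to 4 over any siRNA (27.0% to 28.7%) and 2 to 3 for siRNAs against nt (1.11% to 1.37%), so that fewer genes passed overall as well. Changes of sign were all in values not called: on Day06 against Day00, Gas5 was 0.074 with limma and ran from -0.61 to 0.54 without 1 replicate, and Snhg4 from -0.070 to 1.65; in Mock against nt, Snhg1 was -0.16 and Snhg4 0.036 with limma, and Snhg4 ran from -0.61 to 0.54 without 1 replicate; in siWdr5 against nt, Snhg4 ran from -0.69 to 0.80 without 1 replicate and was 0.021 with DESeq2. The signs that turned without 1 replicate did so with replicate 3 left out. The cause was not tested. Ratios of the summed level moved, on the log2 scale, by less than the SD of the 2 groups' libraries combined; that of nt to Day06 ran from 1.61 (share of all counts) to 2.40 (without replicate 2). Snhg6, Snhg8 and Snhg12 were removed by the filter on low counts; without it, and for Snhg8 and Snhg12 with limma, none of them was called in any comparison run.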
